A study of Coregonus migratorius and Coregonus peled with 8 samples.

Results

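The 100 most abundant genes of this list were found by ranking all 2184 listed genes on the mean of their 8 deposited values and keeping the highest 100. They are 100 of 2184 genes, and the other 2084 genes are used below as the comparison. The gene at rank 99 had a mean value of 187, the gene at rank 100 one of 186.0 and the next 2 genes, which were left out, 183 and 179, so no gap marks the border. The ranking used the level in all 8 libraries, and the level itself is therefore a description and not a result. An unscaled mean gives more weight to libraries with high values, which favours genes that are high there.

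In a whole larva, a small number of very abundant messages usually makes up much of the messenger RNA. In fish larvae such messages are known to come from contractile proteins of the swimming muscle, from digestive enzymes of the gut and exocrine pancreas, from structural proteins of skin and skeleton, and from the ribosome and mitochondrion. Their summed level follows both how large each tissue is within the larva and how active it is. In a whole-body pool, fewer cells of a type and less RNA per cell cannot be told apart. The files give assembly identifiers of the Trinity type without gene names, so none of these functions can be assigned to a gene below, and the labelled tissue (whole larvae) could not be checked against marker genes.

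Poly(A) RNA of 2 whitefishes, the peled (Coregonus peled) and the Baikal omul (Coregonus migratorius), was sequenced from whole larvae. RNA was extracted from single larvae and then combined, so each library is a pool of 12 to 16 larvae, and each of the 8 groups is 1 library. For either species the groups were larvae from nature (ponds at a hatchery), aquaculture-reared larvae after chronic stress (repeated exposure to 21 °C, each for 24 h, at 3 exposures a week), aquaculture-reared larvae after acute stress (21 °C for 1 h), and aquaculture-reared control larvae. The aquaculture-reared larvae of all 3 kinds had been held for 1.5 months at 9 to 12 °C before any heating. Age was not stated in the labels, and differences in age, water temperature or food between the origins cannot be told apart from origin. No group has a replicate pool, so the tests below measure the spread between pools of different heat states or species.

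The deposited values are normalized expression values that are not whole numbers. The labels and headers state neither their unit nor whether they were scaled for gene length, so a higher value in one gene than in another need not mean more molecules. Sequencing depth is unknown, and no counting interval can be given. Summed values ran from 79169 to 228369 over the libraries. None of the 100 genes was listed at 0 in any library (0 of 100 in each). The libraries did not separate by species throughout. Across the 100 genes the log2 values correlated at r = 0.91 between the nature libraries of peled and omul, at 0.11 between nature and control peled, and at 0.46 between nature and control omul. These are descriptions over 100 genes that share their libraries, and the corresponding values over the other 2084 genes were 0.89, 0.063 and 0.55. Across the species, nature peled correlated with control omul at 0.47 in the 100 genes and 0.51 in the others. For nature omul and control peled these values were 0.37 and 0.25.

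The 100 genes held most of the summed value in 6 of the 8 libraries. Their share was 75.1% in peled from nature, 60.2% in chronic peled, 42.7% in acute peled and 49.7% in control peled. In omul it was 69.99% in nature, 64.2% after chronic stress, 66.98% after acute stress and 63.7% in the control. The 3 aquaculture-reared peled libraries averaged 50.9% ± 8.79 (SD, n = 3), and the 3 aquaculture-reared omul libraries 64.9% ± 1.79 (SD, n = 3). Every aquaculture-reared peled library lay below every omul library, while peled from nature lay above all 7 others. The spread over heat states was wide in peled, and in omul the 4 shares lay within 6.34 points of each other. Of the 100 genes 70 had their highest value in nature peled, which the ranking favours, and 62 their lowest in acute peled, the library with the lowest summed value. Neither number was counted over all listed genes, so neither is read as particular to the 100 genes. These shares carry no p-value, since each group is 1 library and the genes were chosen on these values.

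**Figure D1:**
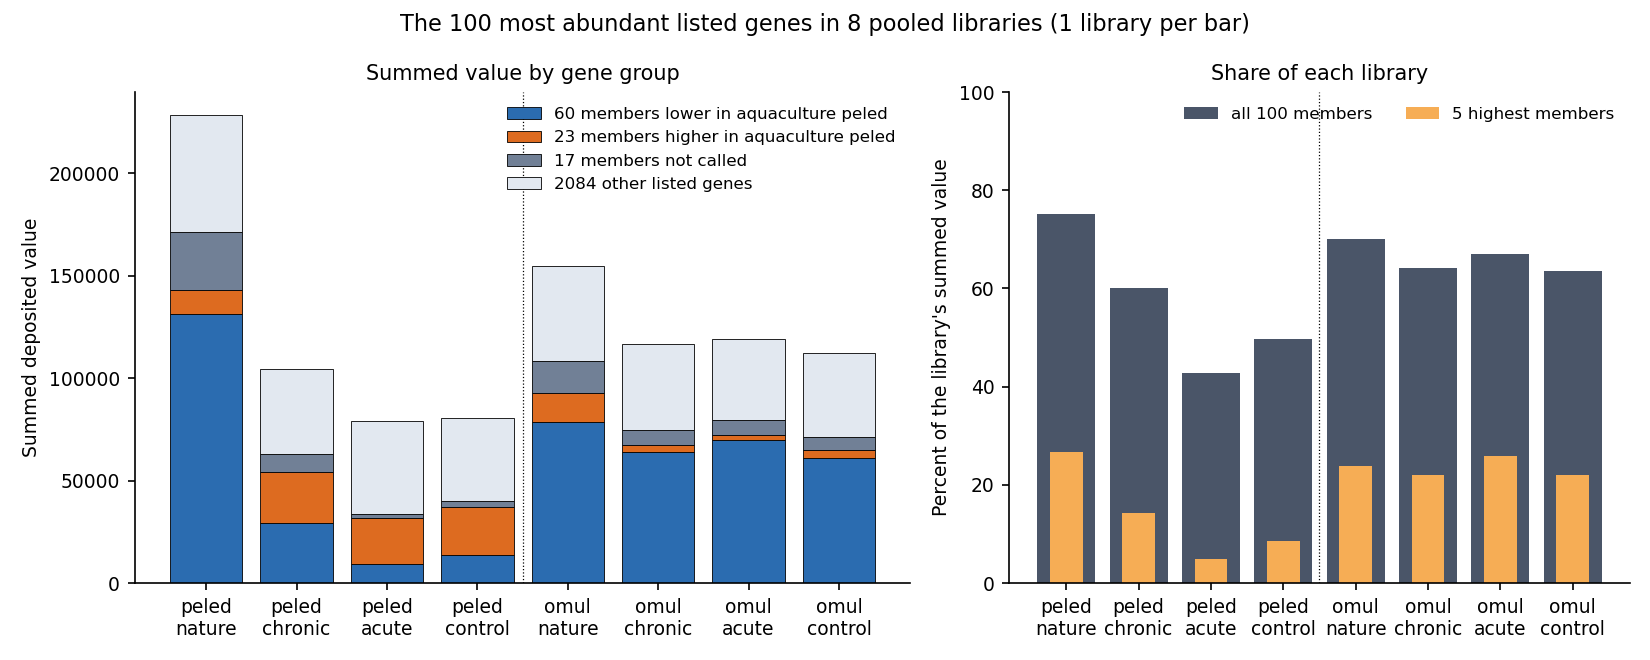
Left, summed deposited value of each library, stacked by gene group, with 1 pooled library per bar and the groups defined by limma's test of peled minus omul in aquaculture. Right, the percent of each library's summed value held by all 100 genes (wide bars, from 42.7% to 75.1%) and by the 5 highest (narrow bars, from 4.89% to 26.6%).

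The ranking on unscaled values picks genes that hold much of each library's summed value, so what follows is a description and not a result. The difference in summed value between libraries came mostly from these 100 genes. Their sum was 171562 in peled from nature, 63013 in chronic peled, 33819 in acute peled and 40158 in control peled. In omul it was 108393 in nature, 74940.3 after chronic stress, 79689 after acute stress and 71504 in the control. The highest of these sums was 5.07 times the lowest. The sum of the other 2084 genes ranged from 39283 in acute omul to 56806 in peled from nature, a ratio of 1.45. Of the excess of nature over control in summed value, the 100 genes carried 89.1% in peled and 86.7% in omul. Of the excess of chronic over control they carried 95.7% in peled and 76.9% in omul, where that excess was small (4471 in omul, against 23871 in peled). After acute stress the 100 genes and the rest moved in opposite directions. Against the control, the difference in peled was -6339 for the 100 genes and 4654 for the rest, and in omul it was 8185 for the 100 genes and -1549 for the rest.

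Few genes made up much of the summed value. Counting genes from the highest down, 23 genes made up 50% of the summed value in peled from nature, 44 in chronic peled, 74 in acute peled and 58 in control peled. In omul the numbers were 31 in nature, 34 after chronic stress, 25 after acute stress and 33 in the control. By this number the acute library was the least concentrated of peled and the most concentrated of omul, while by the share of the 100 genes nature omul stood above acute omul. The 5 highest genes alone held 26.6%, 14.3%, 4.89% and 8.56% in nature, chronic, acute and control peled, and 23.8%, 22.1%, 25.8% and 22.1% in nature, chronic, acute and control omul. The genes at ranks 6 to 100 held 41.6% ± 4.02 in aquaculture-reared peled and 41.6% ± 0.43 in aquaculture-reared omul (SD, n = 3 libraries each), and 48.5% and 46.2% in nature peled and nature omul, more than the 5 highest held in every library. With the 5 highest genes taken out of the total as well, a reading added after the data were seen, ranks 6 to 100 held 66.1%, 53.5%, 39.8% and 44.96% of the remainder in nature, chronic, acute and control peled, and 60.6%, 53.98%, 55.5% and 53.3% in omul. The species difference of the aquaculture means was then -8.20 points, against -14.1 points for all 100 genes of the whole sum, and the excess of nature peled over its aquaculture mean was 20.03 points, against 24.3. Acute and control peled lay below the omul libraries in that reading too, and chronic peled lay among them.

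The 5 highest genes moved almost as a block. TRINITY_DN11304_c0_g1, the gene with the highest mean, stood at 17003 in nature, 3557 in chronic, 870.1 in acute and 1524 in control peled, and at 9093 in nature, 7534 in chronic, 9286 in acute and 6748 in control omul. TRINITY_DN2379_c0_g1 stood at 14995, 4639, 1033 and 2141 in nature, chronic, acute and control peled, and at 11674, 6175, 7506 and 6741 in the same states of omul. In both genes every aquaculture-reared peled library lay below every omul library, and nature peled lay above all others. TRINITY_DN928_c0_g1 stood at 12918, 2747, 860.7 and 1382 in nature, chronic, acute and control peled, and at 7304, 5875, 6632 and 5578 in omul. TRINITY_DN1632_c10_g1 stood at 10044, 2012, 618 and 953 in nature, chronic, acute and control peled, and at 5121, 4347, 5347 and 3982 in omul. Both repeated the order of TRINITY_DN11304_c0_g1 within peled. TRINITY_DN51072_c0_g1 stood at 5803, 2056, 488 and 919 in nature, chronic, acute and control peled, and at 3696, 1907, 1915 and 1772 in omul, so that its chronic peled value lay above its aquaculture-reared omul values.

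**Figure D2:**
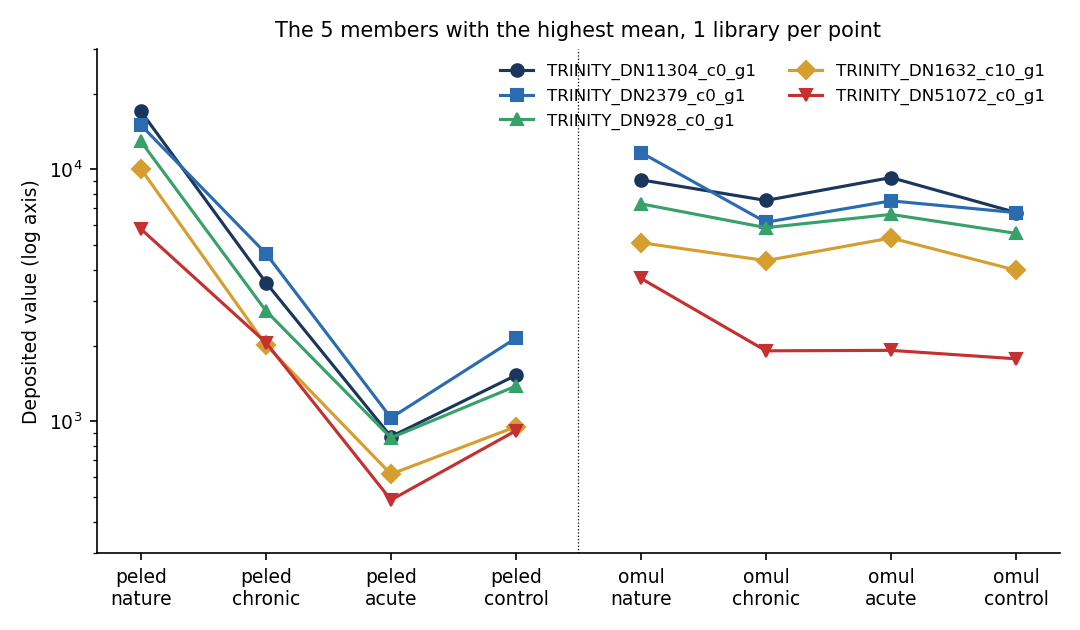
Deposited value (log axis) of the 5 genes with the highest mean in each library, 1 point per library, with lines joining the libraries of a species. In peled all 5 fall in the order nature, chronic, control, acute, and in omul each gene stays within a narrower band.

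Their proportions to each other changed far less than their levels. TRINITY_DN11304_c0_g1 varied 19.5-fold over the 8 libraries, while its ratio to TRINITY_DN1632_c10_g1 stayed between 1.41 and 1.78, and its ratio to TRINITY_DN928_c0_g1 between 1.01 and 1.40. Its ratio to TRINITY_DN2379_c0_g1 ranged from 0.71 in control peled to 1.24 in acute omul. TRINITY_DN51072_c0_g1 followed least closely, with a ratio of 1.66 in control peled and 4.85 in acute omul. Each of the 5 was above its control after chronic stress and below it after acute stress in peled, by factors of 1.99 to 2.33 and of 0.48 to 0.65. In omul the corresponding factors were 0.92 to 1.12 after chronic and 1.08 to 1.38 after acute stress.

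Peled was first compared with omul among aquaculture-reared larvae, to describe which abundant genes the species express differently under shared rearing. limma's test was run on log2(value + 1) over all 2184 genes, in a fit with 4 cells (species by origin) in which the heat states stand in as replicates. A gene was called at an adjusted p (Benjamini-Hochberg over all 2184 genes) below 0.05. Of the 100 genes, 60 were lower in peled, 23 higher, and 17 were not called. Over all listed genes 42.9% were lower and 36.4% higher, 79.3% in all, so the 83 of 100 genes called are close to the share in the whole list. The median log2 difference was -1.53 in the 100 genes and -0.49 over all 2184. Summed values averaged 116038 in aquaculture-reared omul and 88249 in aquaculture-reared peled, so among these libraries the unscaled ranking favours genes high in omul. Of the 100 genes highest in aquaculture, 30 were higher and 52 lower, with a median of -1.36. Of those highest in omul, 13 were higher and 70 lower, with a median of -1.78. With libraries scaled to a common sum the medians were -1.12 and -0.19. The lean towards lower in peled is thus a description only. Among the 5 highest genes the log2 difference ran from -2.21 for TRINITY_DN11304_c0_g1 (SE 0.51, adjusted p = 0.00418 by limma) to -0.94 for TRINITY_DN51072_c0_g1 (SE 0.52, adjusted p = 0.129 by limma), the gene of the 5 that did not pass. Additive terms for species and state over 8 libraries, with 1 species difference for both origins, called 13 of the 100 higher and 10 lower, where 35.9% of all listed genes were called.

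State by state, 21 genes were at least 2-fold higher and 39 lower in chronic peled than in chronic omul, where 39.9% and 42% of listed genes were (single libraries, with no test). After acute stress 23 were higher and 75 lower in peled, where 45.2% and 44.2% of listed genes were. In the control 17 were higher and 66 lower in peled, where 40.9% and 45.5% of listed genes were. The acute libraries were thus furthest apart.

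The 3 groups made by this test are used below to describe the 100 genes, and their aquaculture values are by construction apart. The 60 genes lower in aquaculture peled include 9 of the 10 highest, 20 of ranks 11 to 50 and 31 of ranks 51 to 100. They held 57.5% of the summed value in nature, 28.1% in chronic, 11.6% in acute and 16.96% in control peled, and 50.9%, 54.9%, 58.8% and 54.4% in the same states of omul. The 23 genes higher in aquaculture peled include 0 of the 10 highest and 13 of ranks 11 to 50. They held 5.11%, 23.8%, 28.3% and 28.9% in nature, chronic, acute and control peled, and 9.14%, 2.66%, 1.83% and 3.47% in omul. The 17 remaining genes held 12.5%, 8.20%, 2.82% and 3.79% in nature, chronic, acute and control peled, and 9.93%, 6.58%, 6.38% and 5.79% in omul. In acute and control peled the 23 genes thus held more than the 60, and in chronic peled the 60 held more.

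**Figure D3:**
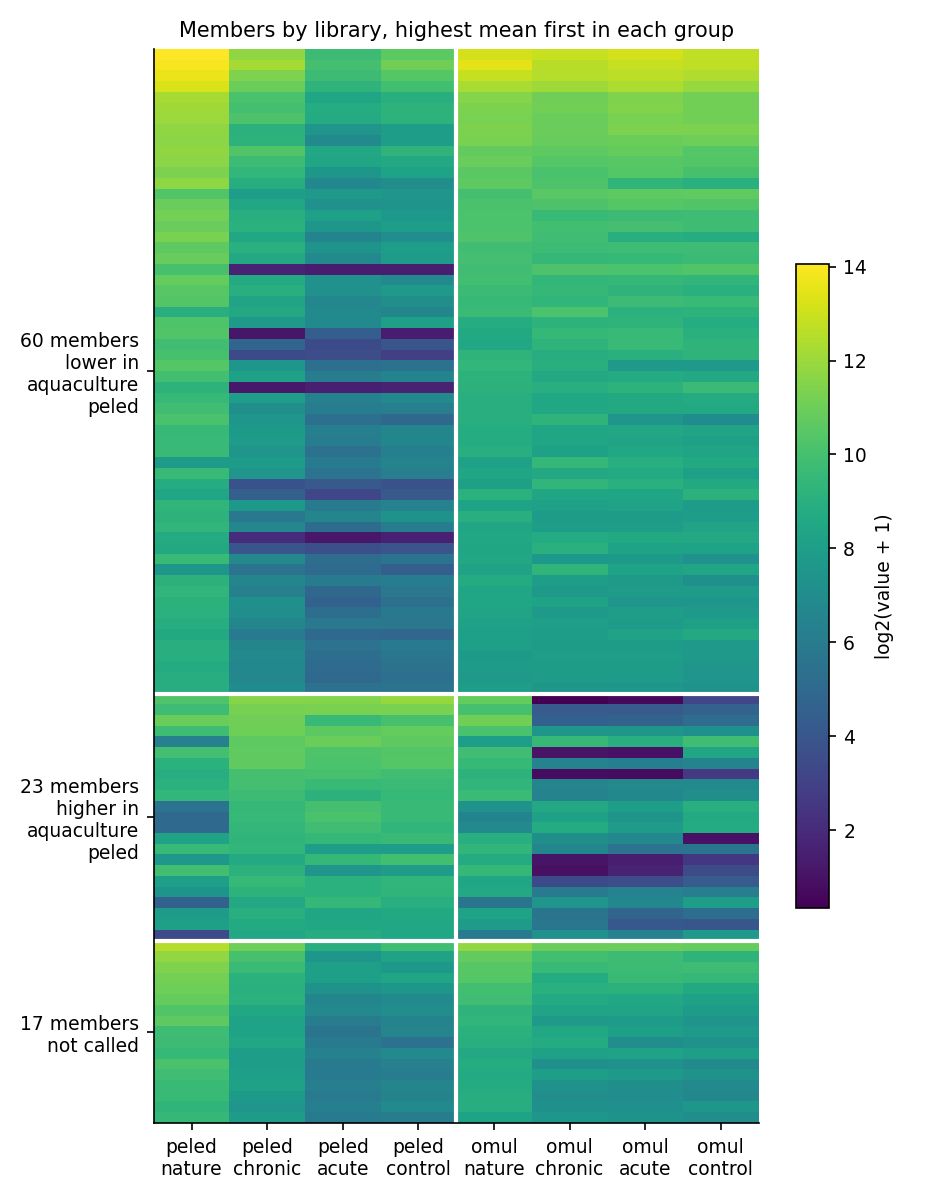
Level of each of the 100 genes (rows) in each library (columns) as log2(value + 1), with rows grouped by limma's test of peled minus omul in aquaculture and ordered by mean within a group. The 60 genes of the upper block are darker in each aquaculture-reared peled column than in the omul column of the same state. Part of the 23 genes of the middle block is dark in the 3 aquaculture-reared omul columns, while both nature columns are mostly bright.

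Single genes show how far apart the species were. TRINITY_DN79_c1_g2 stood at 3047 in chronic, 2881 in acute and 3758 in control peled, against 0.26, 0.56 and 8.57 in chronic, acute and control omul, a difference on the log2 scale of 10.24 (SE 0.74, adjusted p = 2.26e-05 by limma). TRINITY_DN28795_c0_g1 stood at 1037, 1085 and 914 in chronic, acute and control peled, against 0.75, 0.64 and 5.11 in omul, a difference on the log2 scale of 8.60 (SE 0.55, adjusted p = 1.51e-05 by limma). In the other direction, TRINITY_DN7205_c1_g2 stood at 2.27, 1.75 and 1.84 in chronic, acute and control peled, against 1183, 1130 and 1301 in omul, a difference on the log2 scale of -8.67 (SE 0.34, adjusted p = 9.6e-06 by limma). TRINITY_DN5_c3_g1 stood at 1.32, 1.94 and 2.23 in chronic, acute and control peled, against 489, 599 and 811 in omul, a difference on the log2 scale of -7.79 (SE 0.38, adjusted p = 9.6e-06 by limma). In all 4 genes the groups did not overlap, which their choice for the largest called differences favours. The nature libraries of both species held all 4 at high values. TRINITY_DN79_c1_g2 was at 1249 in nature peled and 1770 in nature omul. TRINITY_DN7205_c1_g2 was at 1083 in nature peled and 924 in nature omul.

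Other genes of the kind stood likewise. The aquaculture means of the species were at least 16-fold apart for 17 of the 100 genes, a border set after the values were seen. Of these, 8 were higher in peled and 9 higher in omul. The share of all listed genes at least 16-fold apart was not counted, so the number is not read as a trait of the 100 genes. The 8 higher in peled had a median value of 714 in nature peled and 720 in nature omul, against medians of 1182 in aquaculture-reared peled and 8.76 in aquaculture-reared omul. The 9 higher in omul had a median of 580 in nature peled and 407 in nature omul, against 9.03 in aquaculture-reared peled and 533 in aquaculture-reared omul. In nature all 17 stood between 199 and 2153 in both species, and 7 of the 8 and 7 of the 9 differed by less than 2-fold between the species. Most listed genes that reached the minimum value for such counts did so too. Of those, 12.6% were at least 2-fold higher and 12.3% at least 2-fold lower in nature peled. The closeness in nature is therefore not read as particular to the 17 genes. The ranking included the nature values and so favours genes that are high in nature. Among the 100 genes highest in the 6 aquaculture-reared libraries alone, which include all 17, 20 were at least 16-fold apart. These stood between 46.8 and 2153 in nature, and for each of the 20 the nature value of the species with the lower mean lay above its 3 aquaculture-reared values. Choosing genes at least 16-fold apart picks low aquaculture values in that species, which favours such an order. The order was not counted over all listed genes, so it is a description only. Whether the nature pools held larvae of their labelled species only was not tested. Each of the 8 genes was higher in control omul than in the other aquaculture-reared omul libraries, with a median of 5.40 after chronic stress, 6.62 after acute stress and 14.4 in the control. Of the 9 higher in omul, 5 were highest in chronic, 3 in acute and 1 in control peled among its aquaculture-reared libraries. The 8 genes were chosen for low values in omul, and 3 of them stayed below 10 in all 3 libraries. How many of all listed genes have control omul highest was not counted, so this is a description only.

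No abundant gene was called between the species in nature. Of the 100 genes 0 were called between nature peled and nature omul by limma, as were 0 of all 2184 (0%), with 4 of the 100 and 142 of the 2184 at an unadjusted p below 0.05. There is 1 nature library per species, and its spread is assumed to be that of the aquaculture-reared libraries, so a p above the threshold does not show equality. The median log2 difference was 0.73 in the 100 genes and -0.14 over all genes, and 77 of the 100 stood higher in nature peled, as did 43.2% of all listed genes. The ranking favours genes high in nature peled, the library with the highest summed value. In the 100 genes highest in the 6 aquaculture-reared libraries the median was 0.43. With every library scaled to a common sum, the median was 0.17 in the 100 genes described here and -0.56 over all genes. By value, 19 of the 100 were at least 2-fold higher and 8 at least 2-fold lower in nature peled, against 12.6% and 12.3% of the listed genes whose value reached 10 in at least 1 of the pair. At the ends, TRINITY_DN10607_c0_g4 was at 1301 in nature peled and 407 in nature omul (adjusted p = 0.846 by limma), and TRINITY_DN201435_c0_g3 at 9.28 in nature peled and 60.9 in nature omul (adjusted p = 0.724 by limma).

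**Figure D4:**
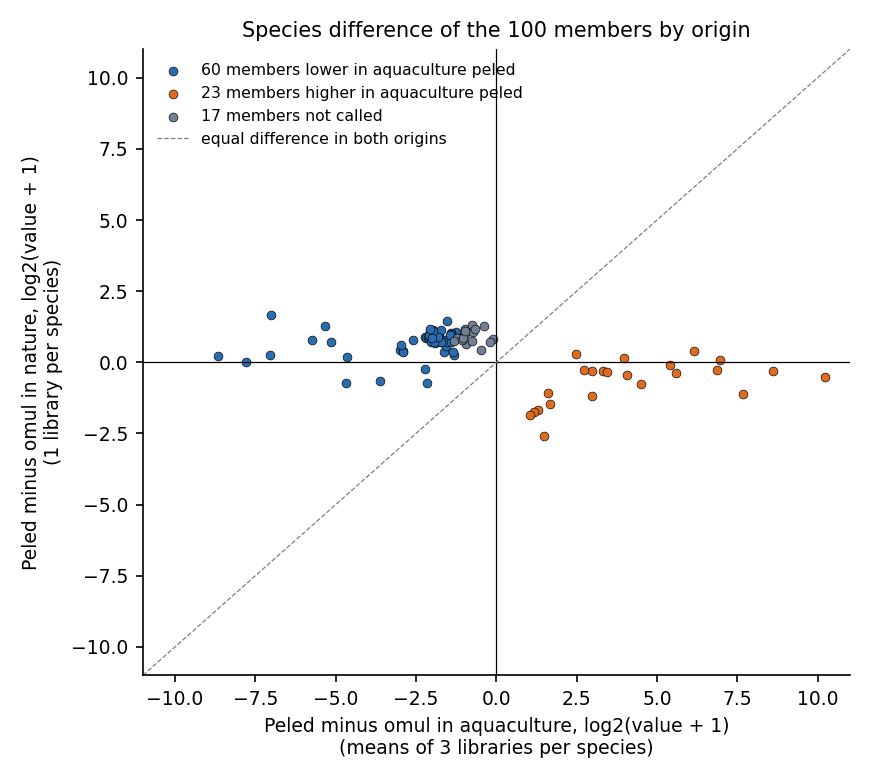
Peled minus omul on the log2(value + 1) scale for each of the 100 genes, in aquaculture (horizontal axis, means of 3 libraries per species) and in nature (vertical axis, 1 library per species). Differences run from -8.67 to 10.24 in aquaculture and from -2.59 to 1.67 in nature, so the points lie along the horizontal axis and away from the dashed line of equal difference.

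Larvae from nature were then compared with aquaculture-reared larvae of the same species, to describe how origin goes with the abundant genes. In peled 75 of the 100 genes were higher in nature and 9 lower, where 40% of all listed genes were higher and 28.2% lower, 68.2% in all (limma, adjusted p below 0.05). The median log2 difference was 2.88 in the 100 genes and 0.31 over all 2184. Counts by gene group are not given for origin, since the groups were made from the same aquaculture values. TRINITY_DN7205_c1_g2 was 8.52 higher on the log2 scale in nature peled (SE 0.49, adjusted p = 0.000206 by limma). TRINITY_DN10607_c0_g4 stood at 1301 in nature peled, against 1.27 in chronic, 21.0 in acute and 1.68 in control peled, a difference on the log2 scale of 7.99 (SE 1.16, adjusted p = 0.00125 by limma). On the lower side, TRINITY_DN201435_c0_g3 stood at 9.28 in nature peled, against 374, 446 and 379 in chronic, acute and control peled, a difference on the log2 scale of -5.28 (SE 0.62, adjusted p = 0.000721 by limma). TRINITY_DN34175_c0_g1 stood at 32.6 in nature peled, against 746, 1120 and 798 in chronic, acute and control peled, a difference on the log2 scale of -4.70 (SE 0.63, adjusted p = 0.00104 by limma). All 4 genes kept nature outside the range of the aquaculture-reared peled libraries, which their choice for the largest called differences favours. TRINITY_DN10607_c0_g2, of the same Trinity component as TRINITY_DN10607_c0_g4, was not as low in aquaculture. It stood at 1231 in nature, 213 in chronic, 121 in acute and 275 in control peled. Its difference on the log2 scale was 2.67 (SE 0.60, adjusted p = 0.00531 by limma).

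Between the single libraries of nature and control peled, 79 genes were at least 2-fold higher and 14 lower, where 48.2% and 39.7% of listed genes were.

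Fewer abundant genes were called between origins in omul. Of the 100 genes 15 were higher in nature omul and 0 lower, where 16.9% of all listed genes were higher and 5.54% lower (limma, adjusted p below 0.05), so the count is near the background. Without chronic peled, which enters the shared estimate of spread, 23 were called, where 27.4% of all listed genes were. The median log2 difference was 0.47 in the 100 genes and 0.24 over all genes. Between the single libraries of nature and control omul, 37 genes were at least 2-fold higher and 6 lower, where 33% and 21.8% of listed genes were. TRINITY_DN79_c1_g2, at 1770 in nature omul, was 9.38 higher there than in aquaculture-reared omul (SE 1.04, adjusted p = 0.0019 by limma). TRINITY_DN28795_c0_g1, at 594 in nature omul, was 7.84 higher (SE 0.78, adjusted p = 0.00127 by limma).

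The origin difference itself was tested between the species. For 56 of the 100 genes it differed between peled and omul, 36 with a higher and 20 with a lower difference in peled, where 59.8% of all listed genes differed, 29.8% higher and 30.1% lower (limma, adjusted p below 0.05). Among the 5 highest genes it was 3.12 for TRINITY_DN11304_c0_g1 (SE 1.03, adjusted p = 0.0312 by limma), 2.84 for TRINITY_DN928_c0_g1 (SE 0.90, adjusted p = 0.0276 by limma) and 3.07 for TRINITY_DN1632_c10_g1 (SE 0.94, adjusted p = 0.0242 by limma). It was 2.0 for TRINITY_DN2379_c0_g1 (SE 1.05, adjusted p = 0.126 by limma) and 1.59 for TRINITY_DN51072_c0_g1 (SE 1.05, adjusted p = 0.206 by limma), and neither passed. Without chronic peled, the aquaculture-reared peled library with the highest sum of the 100 genes, 95 of the 100 differed, where 67.4% of all listed genes did.

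The counts by origin depend on scale and on the model. Scaling every library to a common sum, a sum that includes these genes, moved the median of all genes by -1.09 (log2) in the origin difference of peled and by -0.36 in that of omul. It moved it by 0.31 and -0.42 in the species differences of aquaculture and nature, and by -0.17 after chronic stress. Relative to the median of all genes, the median of the 100 genes was then 2.28 for origin in peled and 0.17 for origin in omul, against 2.56 and 0.23 without scaling. The calls were then 49 higher and 18 lower in peled, 15 higher and 2 lower in omul, and 20 higher and 21 lower for the difference between the species. Over all listed genes 61.3%, 16.7% and 49.0% were called for these 3 contrasts. Additive terms for species and state over 8 libraries called 0 of the 100 genes between nature and control and 0.137% of all listed genes, with 29 of the 100 and 316 of the 2184 at an unadjusted p below 0.05. This was a fit whose median residual SD was 0.97 on the log2 scale, against 0.48 in the fit with 4 cells. The ranking included the nature libraries, so the count was also read in the 100 genes highest in the 6 aquaculture-reared libraries, a reading added after the data were seen. Of those 60 were higher and 20 lower in nature peled.

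The warmed groups were next set against the control larvae to describe the heat response, in a fit of the 6 aquaculture-reared libraries with species and state as additive terms (2 residual degrees of freedom). Of the 100 genes 0 were called after chronic stress, where 0.137% of all listed genes were called, and 0 after acute stress, where 0.733% were called, 0.687% higher and 0.0458% lower (limma, adjusted p below 0.05). Between chronic and acute stress 0 were called too, where 0.87% of all were. At an unadjusted p below 0.05 there were 8 of the 100 genes after chronic stress, 1 after acute stress and 9 between chronic and acute. The smallest limma adjusted p among the 100 genes was 0.131 after chronic and 0.518 after acute stress. With chronic omul, chronic peled or control peled left out, some of the 100 genes were called. Each such fit leaves 1 library in that state, whose level then rests on 1 species. Counts from these fits are therefore not read as results. The test asks for a difference shared by both species, with 1 library per species and state. Why none of the 100 genes was called with all 6 libraries was not tested.

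In peled the abundant genes stood higher after chronic stress. Against control peled, 57 of the 100 genes were at least 2-fold higher in chronic peled and 2 at least 2-fold lower, where 20.1% of listed genes were higher and 16.3% lower (single libraries, no test, counting genes whose value reached 10 in at least 1 of the pair). The median log2 difference was 1.08 in the 100 genes and 0.03 over all listed genes. Chronic peled had a summed value of 104725, against 80854 in control and 79169 in acute peled. The ranking on unscaled values favours genes that are high in such a library, so its comparisons with control and acute peled are descriptions only. Of all listed genes 51.1% stood above the control, and of the 100 genes 86. Of the 60 genes lower in aquaculture peled 56 stood above it, with a median of 1.12 and an interquartile range of 0.65 to 1.26. All 17 genes without a species call stood above it, with a median of 1.68. The 23 genes higher in aquaculture peled were divided, 13 above and 10 below the control, with a median of 0.14. These groups were made from the same aquaculture values, chronic peled among them, so how they differ here is a description only. Between the warmed peled libraries, 63 were at least 2-fold higher in chronic than in acute peled and 1 lower, where 19.7% and 19% of listed genes were. In omul 6 of the 100 genes were at least 2-fold higher after chronic stress and 2 lower, where 10.9% and 10.7% of listed genes were, and the median log2 difference was 0.05. Between chronic and acute omul 7 were higher and 0 lower, where 7.36% and 6.84% of listed genes were.

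By the median, the shift in peled was smaller after acute than after chronic stress. In omul it was larger after acute stress, at 0.12 against 0.05. In peled 79 of the 100 genes stood below the control, as did 53.6% of all listed genes, with a median log2 difference of -0.36, and over all listed genes the median was -0.06. At least 2-fold, 1 was higher and 4 were lower, where 12.3% and 7.07% of listed genes were. In omul 60 of the 100 stood above the control, as did 45.4% of all listed genes, with a median of 0.12, and at least 2-fold 1 was higher and 5 lower, where 8.15% and 10.5% of listed genes were. For 56 of the 100 genes acute stress went with a lower value in peled and a higher value in omul, and 27 moved the same way in both, 23 lower and 4 higher. These joint counts were not made over all listed genes, so they are not read as particular to the 100 genes. In the 23 genes higher in aquaculture peled, a group made from these same libraries, the medians were -0.10 in peled and -0.71 in omul. With 1 library per species and state, this difference between species was not tested. For 62 of the 100 genes the peled libraries followed the falling order nature, chronic, control, acute, an order held by 15.6% of all listed genes. The summed values of these libraries fell in that order too (228369, 104725, 80854 and 79169). The ranking on unscaled values favours genes of this order, so the number is a description only.

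**Figure D5:**
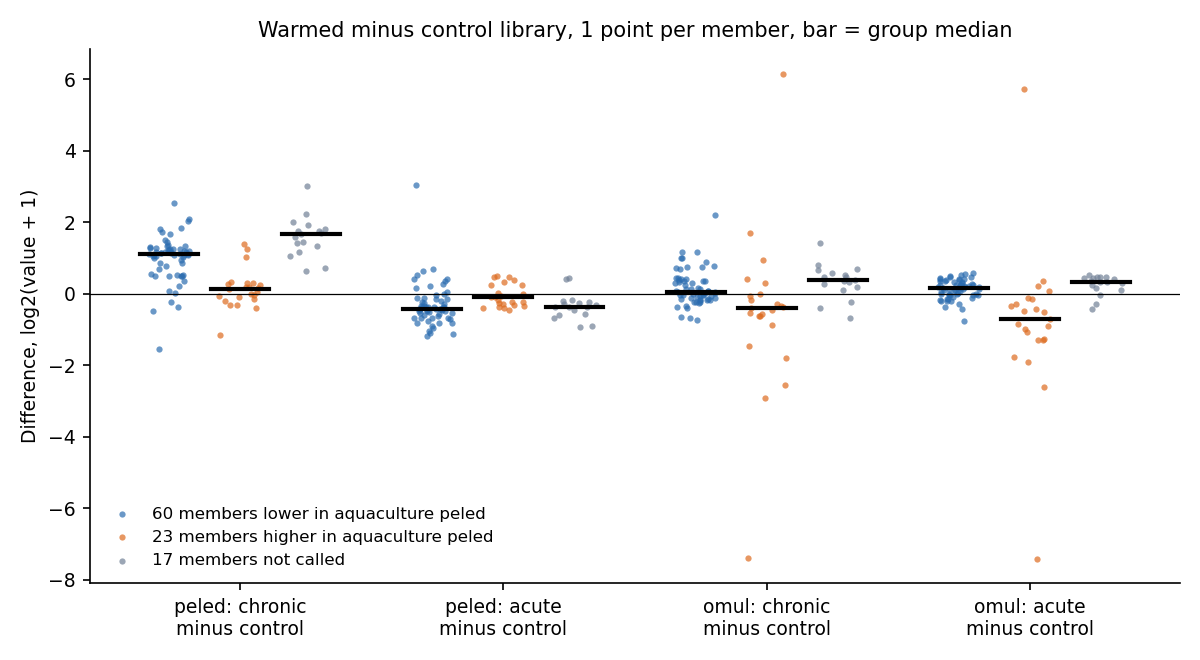
Difference between a warmed library and the control library of its species on the log2(value + 1) scale, 1 point per gene and a bar at the median of each gene group. In chronic peled the medians of the 60 and the 17 genes lie at 1.12 and 1.68, while the group medians in acute peled and in both omul comparisons lie between -0.71 and 0.40. The groups were made from the same aquaculture values, so how they differ is a description only.

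Single genes with the same direction in both species are given as values. After chronic stress TRINITY_DN77507_c0_g2 stood at 183 in chronic and 30.4 in control peled and at 601 in chronic and 129.9 in control omul, a difference on the log2 scale of 2.38 (SE 0.47, adjusted p = 0.131 by limma). The gene of the same component, TRINITY_DN77507_c0_g1, stood at 364 in chronic and 59.8 in acute peled and at 432 in chronic and 131 in acute omul (adjusted p = 0.161 by limma). Both were higher after chronic stress in either species, short of the threshold. TRINITY_DN79_c1_g2 had the lowest difference after chronic stress among genes with the same sign in both species, -1.61 (adjusted p = 0.321 by limma), which rests on values of 0.26 in chronic and 8.57 in control omul. TRINITY_DN10607_c0_g4 stood at 21.0 in acute and 1.68 in control peled and at 772 in acute and 522 in control omul (adjusted p = 0.518 by limma). TRINITY_DN10607_c0_g2 of the same component stood lower in acute peled, at 121 against 275 in the control. In omul it stood at 623 in acute and 460 in the control.

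The control library of omul stood apart for single genes. TRINITY_DN75747_c0_g1 was at 1678 in chronic, 1249 in acute and 1323 in control peled, and at 1.05 in chronic, 1.02 in acute and 343 in control omul. Its acute log2 difference was -3.75 (SE 1.65, adjusted p = 0.611 by limma), and without control omul it was 0.019. The gene at rank 53, TRINITY_DN79_c0_g3, picked out after its values were seen, showed the reverse, with 141 in chronic, 105 in acute and 0.99 in control omul, and 639, 704 and 795 in chronic, acute and control peled. Both genes are far from the other genes in the plot of warmed minus control values, and each rests on 1 omul library.

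The list of the most abundant genes itself changed with origin and species. The 100 highest genes of each library shared 85 of the 100 genes in nature, 71 in chronic, 44 in acute and 51 in control peled. In omul they shared 93 in nature, 76 in chronic, 76 in acute and 75 in the control. Together the 8 lists of 100 named 218 genes, of which 20 stood in all 8 lists, all of them among the 100 genes described here. The lists of nature peled and nature omul shared 87 genes, those of control peled and control omul 38, and those of nature peled and control peled 39. The list of nature peled shared 58 and 32 genes with those of chronic and acute peled. With the lists of chronic, acute and control omul it shared more, 71, 73 and 68. The list of nature omul shared 69 genes with that of control omul and 47 with that of control peled. Why the lists overlap in this way was not tested. Each library's own 100 highest genes held 76.98%, 65.5%, 55.8% and 59.8% of its summed value in nature, chronic, acute and control peled, and 70.6%, 68.04%, 69.8% and 66.9% in omul. The lower concentration of aquaculture-reared peled thus remained when each library was given its own leading genes.

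The shares did not hinge on the library being read. With the 100 genes chosen for each library from the 7 others, the share was 73.3% in nature, 59.5% in chronic, 41.8% in acute and 48.8% in control peled, and 69.97%, 63.6%, 66.8% and 63.7% in the same states of omul. With the genes chosen in the other species, it was 74.4%, 55.1%, 35.8% and 42.6% in nature, chronic, acute and control peled, and 67.7%, 59.5%, 63.0% and 59.5% in omul. The order of the peled libraries was the same in both readings. With the genes chosen in the 6 aquaculture-reared libraries, nature peled still had 71.3%, against 61.7%, 46.1% and 52.2% in chronic, acute and control peled.

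Trinity groups genes into components, which can hold copies or variant forms of a gene. The 100 genes came from 92 components, and 8 components held 2 of them each. In the pair with the highest values, TRINITY_DN5375_c0_g1 stood at 4403, 1005, 455 and 589 in nature, chronic, acute and control peled and at 2646, 2278, 2768 and 2225 in omul. Its partner TRINITY_DN5375_c0_g2 stood at 2475, 373, 92.2 and 132 in nature, chronic, acute and control peled and at 1241, 921, 509.9 and 462 in omul. The pair kept the same order within peled, and the ratio of the first to the second ranged from 1.78 to 5.43. With values summed over components, the 100 highest components held 77.5%, 62.7%, 44.8% and 51.8% in nature, chronic, acute and control peled, and 72.1%, 66.2%, 68.9% and 65.6% in omul.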

How the data were processed

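The deposited files give 1 normalized expression signal per gene and library, whose unit, quantifier and scaling by the authors the labels and headers do not state. The submitters' processing notes list Trimmomatic 0.36 as well as edgeR 4.0.3, with no role. Each of the 8 libraries is 1 pool of larvae, and the groups come from the sample titles. The rule by which the 2184 genes were listed is not stated either, so adjusted p-values and shares refer to this list.

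The genes, groups and tests were chosen with earlier results of these data known. Shares are percents of a library's summed value over the 2184 listed genes. In R 4.3.3, limma 3.58.1 with a trend on mean level was fitted to log2(value + 1) of all genes, with no filter. Such differences understate the change of low values. Species and origin were tested in 4 cells over 8 libraries (4 residual degrees of freedom), and heat in the 6 aquaculture-reared libraries. The fits were also run on simulated data with known changes and an equal spread in all genes. There the libraries of a cell were true replicates, unlike the heat states here, so that run does not vouch for the calls. Between single libraries, genes at least 2-fold apart on that scale whose value reached 10 in at least 1 of the pair were counted, with no test. The genes named are the 5 highest by mean, the highest pair of a component, and for each contrast at most 2 higher and 2 lower among those called (with none called, the end values, for heat with the same sign in both species). Alternatives were pseudocounts, a filter, scalings, other models, other choices of the 100 genes, summed components and each library left out. Figures were drawn with matplotlib 3.10.9.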

Additional observations from a re-analysis of the deposited data

Results flagged for a closer look

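In 4 named genes the difference between origins itself differed between the species by limma's interaction test. They were picked for the largest called differences in this same test, so their passing it is no result. The test called 56 of the 100 genes and 59.8% of all listed genes. TRINITY_DN7205_c1_g2 had a log2 origin difference that was 8.90 higher in peled than in omul (SE 0.69, limma adjusted p = 0.000589), and TRINITY_DN10607_c0_g4 one that was 8.68 higher (SE 1.64, limma adjusted p = 0.0049). For TRINITY_DN10607_c0_g2, of the same component as the latter, it was 2.96 higher (SE 0.85, limma adjusted p = 0.0193). TRINITY_DN79_c1_g2 had an origin difference of -10.74 in peled relative to omul (SE 1.47, limma adjusted p = 0.00195), and TRINITY_DN28795_c0_g1 one of -8.93 (SE 1.10, limma adjusted p = 0.00135). In each gene the nature value rests on 1 library per species. The share of the 100 genes moved in opposite directions after acute stress, by -6.95 points against the control in peled and by 3.33 points in omul, a difference that was not tested. No group has 4 libraries, so single libraries were not screened as outliers of a group.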

How the results depend on the processing

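No paired analysis was possible because each group is 1 library and the labels give no replicate numbers, but the 3 heat states can block the species comparison in aquaculture. With heat state as block in the 6 aquaculture-reared libraries, a setting added after the data were seen, 80 of the 100 genes were called, 79 of them among the 83. Of all listed genes 84.4% were called in that fit. Among counts of called genes, 124 values stayed within 1.5 times the reported count and 14 did not. The 124 include counts of 0 against 0, and heat counts that leaving out a nature library cannot change. They are therefore no measure of how firm the calls are. With additive terms for species and state over 8 libraries, 23 of the 100 genes were called between the species (a pooled difference, set against 83 in aquaculture and 0 in nature) and 0 between origins. Leaving out each library gave 0 calls between species in nature and 60 to 99 in aquaculture, where 73.0% to 80.5% of all listed genes were called. It gave 15 to 23 for origin in omul, where 14.8% to 27.4% of all were called. For origin in peled it gave 80 to 90, and for the difference of origin between the species 38 to 95. With all 8 libraries 68.2% and 59.8% of all listed genes were called for these 2 contrasts. None of these counts is read as particular to the 100 genes. The heat counts that follow are no result. Leaving out an aquaculture-reared library leaves 1 library in its heat state, whose level then rests on 1 species. For heat it gave 0 to 4 calls after acute stress, 0 to 7 after chronic stress and 0 to 10 between them, and heat calls appeared without chronic peled, control peled or chronic omul. With the genes chosen in omul, 8 were called for origin in omul, where 22.5% of all listed genes were. The excess of nature omul in share was 5.06 points, 3.06 with the 50 highest genes and 6.99 with genes chosen in the other species. With the 5 highest genes left out of the 100 but kept in the total, the excess of nature peled was 6.93 points, against 24.3, and the species difference in aquaculture -0.0023 points, against -14.1. With them out of the total too, these were 20.03 and -8.20 points. TRINITY_DN10607_c0_g4 and TRINITY_DN201435_c0_g3, at 1.67 and -2.59 between the species in nature, were at -4.84 and 0.47 in the additive fit, which pools all states, and TRINITY_DN75747_c0_g1, at -3.75 in the acute difference, lay between -7.51 and 0.019 with each library left out. The cause of these changes was not tested. Unknown depth limits statements on values near 0.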
